A study of Mus musculus with 9 samples.

Results

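Heterogeneous nuclear ribonucleoproteins (hnRNPs) were followed in ribosome-associated RNA of neurons from the medial prefrontal cortex (mPFC) of mice. The set was named by gene symbol and holds 10 genes: Hnrnpa1, Hnrnpa2b1, Hnrnpa3, Hnrnpc, Hnrnpd, Hnrnpdl, Hnrnph1, Hnrnpk, Hnrnpl and Hnrnpu. They are 10 of the 47593 gene symbols and, with 99 transcripts, 99 of the 115220 transcripts that were listed. All 10 genes were detected in every library, and 51 of their 99 transcripts had a mean of at least 1 FPKM (fragments per kilobase of transcript, scaled to the mapped fragments of the library). The other 48 transcripts were below that mean, and none was at 0 in all 9 libraries.

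The mice were adults of the C57BL/6 strain. RNA bound to ribosomes was pulled down by RiboTag immunoprecipitation, where antibodies catch a ribosomal protein that carries a tag, and stranded total RNA libraries were made from it. The 9 libraries formed 3 groups of 3. In the first group a fusion protein, GFP-Fxr1, was overexpressed in the mPFC and the mice were kept awake (enforced wake with Fxr1). GFP is green fluorescent protein, and Fxr1 is a relative of the fragile X protein Fmr1 that binds RNA and controls its translation. In the second, GFP alone was overexpressed and the mice were kept awake (enforced wake), and in the third GFP alone was overexpressed and the mice slept (sleep). All 3 groups thus carried an overexpressed GFP protein. The length of the enforced wake, the line that drives the ribosomal tag and the delivery of the proteins are not stated in the labels. Nothing in the labels says that replicates came from separate animals, so p-values measure the spread between these libraries.

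The hnRNPs are abundant RNA-binding proteins that coat new transcripts in the nucleus and steer their splicing, export, stability and transport. Most carry RNA recognition motifs or KH domains together with flexible tails rich in glycine, and several shuttle to the cytoplasm. In neurons they are known for alternative splicing of neuronal messages and for the carriage of messages into dendrites. Several of them keep their own level in check by splicing their own RNA into forms that are degraded or stay in the nucleus.

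The overexpressed gene checked the labels. Fxr1 had 91.1, 67.7 and 71.8 FPKM in enforced wake with Fxr1, 34.8, 33.9 and 31.1 FPKM in enforced wake, and 31.7, 34.8 and 31.0 FPKM in sleep. It was 1.17 higher (SE 0.13) on the log2(FPKM + 1) scale in enforced wake with Fxr1 than in enforced wake, with a limma adjusted p of 0.0366. Low values put the depth at an estimated 2.99e+07 to 3.74e+07 fragments per library. Neuronal markers, such as Snap25 of the synaptic release machinery, summed to 3787 to 3922 FPKM in enforced wake with Fxr1, 3499 to 3635 FPKM in enforced wake and 3882 to 4052 FPKM in sleep over 8 genes. Snap25 alone, the bulk of these sums, had means of 2601 FPKM in enforced wake with Fxr1, 2288 FPKM in enforced wake and 2657 FPKM in sleep. The sums thus follow Snap25 more than the list. The median difference of the 8 genes, enforced wake minus sleep, was -0.00064, and 2 of the 8 passed as lower, beside 12.7% of all genes. Markers of astrocytes summed to 92.7 to 109 FPKM in enforced wake with Fxr1, 141 to 169 FPKM in enforced wake and 121 to 138 FPKM in sleep over 6 genes, and no marker of any list was at 0 in every library. Library 1 of enforced wake with Fxr1 stood apart. Without it, 3316 genes passed against enforced wake in place of 60.

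Sequences of Hnrnpa2b1 exons are shown first, and promoters follow. No comparison of expression below uses the promoter words. Hnrnpa2b1 has an alternative coding exon that lengthens the glycine-rich tail of the protein. It lies at chr6:51464428-51464547 on the minus strand (GRCm38) and is 120 bases long. It is present in Hnrnpa2b1-202, Hnrnpa2b1-203, Hnrnpa2b1-204 and Hnrnpa2b1-207 but not in Hnrnpa2b1-210. Hnrnpa2b1-203 and Hnrnpa2b1-207 also have a coding exon of 36 bases at chr6:51467391-51467426, the exon that tells the B1 form of the protein from the A2 form. The exons are printed from the GENCODE M21 transcripts in the sense of the gene, and capitals mark each TATGG, a repeated word in the tail that was searched on that strand only. It stood 4 times in the exon of 120 bases and not in the exon of 36 bases.
Hnrnpa2b1 exon of 120 bases: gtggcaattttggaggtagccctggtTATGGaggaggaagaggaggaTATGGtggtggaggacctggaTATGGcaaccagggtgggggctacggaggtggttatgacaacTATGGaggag
Hnrnpa2b1 exon of 36 bases: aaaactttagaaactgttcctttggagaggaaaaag
Of 118230 exons of protein-coding transcripts with 100 to 200 bases, 10.3% held TATGG at least once and 16 exons held it 4 times or more.

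The promoters shown are those of the genes that fell in enforced wake, Hnrnpdl, Hnrnpd and Hnrnpl, from 250 bases before to 50 bases after the start of the gene (RefSeq, GRCm38.p6). They lie at chr5:100039173-100039472 (minus strand), chr5:99978889-99979188 (minus strand) and chr7:28810640-28810939 (plus strand). Capitals mark every match, on either strand, to 5 words, and no matches overlapped. The word of the GC box was GGGCGG, that of the CCAAT box was CCAAT itself, that of the E-box was CACGTG and that of the TATA box was TATAAA. The core of the cyclic AMP response element was searched as TGACG.
Hnrnpdl: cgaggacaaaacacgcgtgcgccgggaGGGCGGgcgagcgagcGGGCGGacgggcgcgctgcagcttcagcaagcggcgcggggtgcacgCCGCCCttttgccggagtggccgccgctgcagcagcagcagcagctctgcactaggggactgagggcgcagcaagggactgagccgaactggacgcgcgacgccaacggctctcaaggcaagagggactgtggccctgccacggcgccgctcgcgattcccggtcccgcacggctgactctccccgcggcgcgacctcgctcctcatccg
Hnrnpd: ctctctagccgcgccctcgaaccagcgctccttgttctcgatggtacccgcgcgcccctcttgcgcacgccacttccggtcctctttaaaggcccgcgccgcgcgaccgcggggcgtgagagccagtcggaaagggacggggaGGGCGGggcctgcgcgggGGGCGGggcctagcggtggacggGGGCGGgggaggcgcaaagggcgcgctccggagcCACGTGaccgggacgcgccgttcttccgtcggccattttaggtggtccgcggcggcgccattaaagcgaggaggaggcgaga
Hnrnpl: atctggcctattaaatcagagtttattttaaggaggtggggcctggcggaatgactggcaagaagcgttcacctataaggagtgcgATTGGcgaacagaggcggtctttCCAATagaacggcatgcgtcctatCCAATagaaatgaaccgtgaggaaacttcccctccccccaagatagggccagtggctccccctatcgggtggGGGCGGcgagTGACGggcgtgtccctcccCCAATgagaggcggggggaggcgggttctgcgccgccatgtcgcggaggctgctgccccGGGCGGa
The Hnrnpdl window held 3 GC boxes and no other of these words, the Hnrnpd window 3 GC boxes and 1 E-box, and the Hnrnpl window 2 GC boxes, 4 CCAAT boxes and 1 TGACG. Among all 32851 RefSeq windows of this length, 35.7% held a GC box, 37.4% a CCAAT box, 7.15% an E-box, 20.8% TGACG and 13.6% a TATA box. Over the 10 hnRNP genes, 7 had a window with a GC box, 7 with a CCAAT box, 6 with TGACG, 2 with an E-box and none with a TATA box. Hnrnpa2b1 and Hnrnph1 have more than 1 window, while the shares above count each window by itself.

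The hnRNP genes stood high among the genes measured. Hnrnpk, a KH-domain protein that binds runs of C, had the highest level of the set in each of the 9 libraries, from 147 to 206 FPKM. Hnrnpd, also known as AUF1, which binds AU-rich elements and speeds or slows the decay of short-lived messages, had the lowest in each, from 20.4 to 31.0 FPKM. By mean FPKM over the 9 libraries 98.2% of the 14617 genes with a mean of at least 0.5 FPKM lay below Hnrnpk, and 79.5% lay below Hnrnpd. Hnrnpa1, Hnrnpa2b1 and Hnrnph1 followed Hnrnpk at means of 111, 106 and 97.3 FPKM with overlapping ranges. Most of the Hnrnph1 sum came from transcripts annotated as non-coding. Its coding transcripts together had means of 4.52 FPKM in enforced wake with Fxr1, 8.83 FPKM in enforced wake and 4.44 FPKM in sleep. Hnrnpa3, Hnrnpl, Hnrnpc, Hnrnpdl and Hnrnpu had means of 48.8 to 56.2 FPKM, and their ranges overlapped as well. Within that order Hnrnpdl stood higher in sleep than in both wake groups: it ranked 8, 9 and 9 of 10 in enforced wake with Fxr1, 8, 9 and 9 in enforced wake, and 5, 4 and 5 in sleep.

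**Figure D1:**
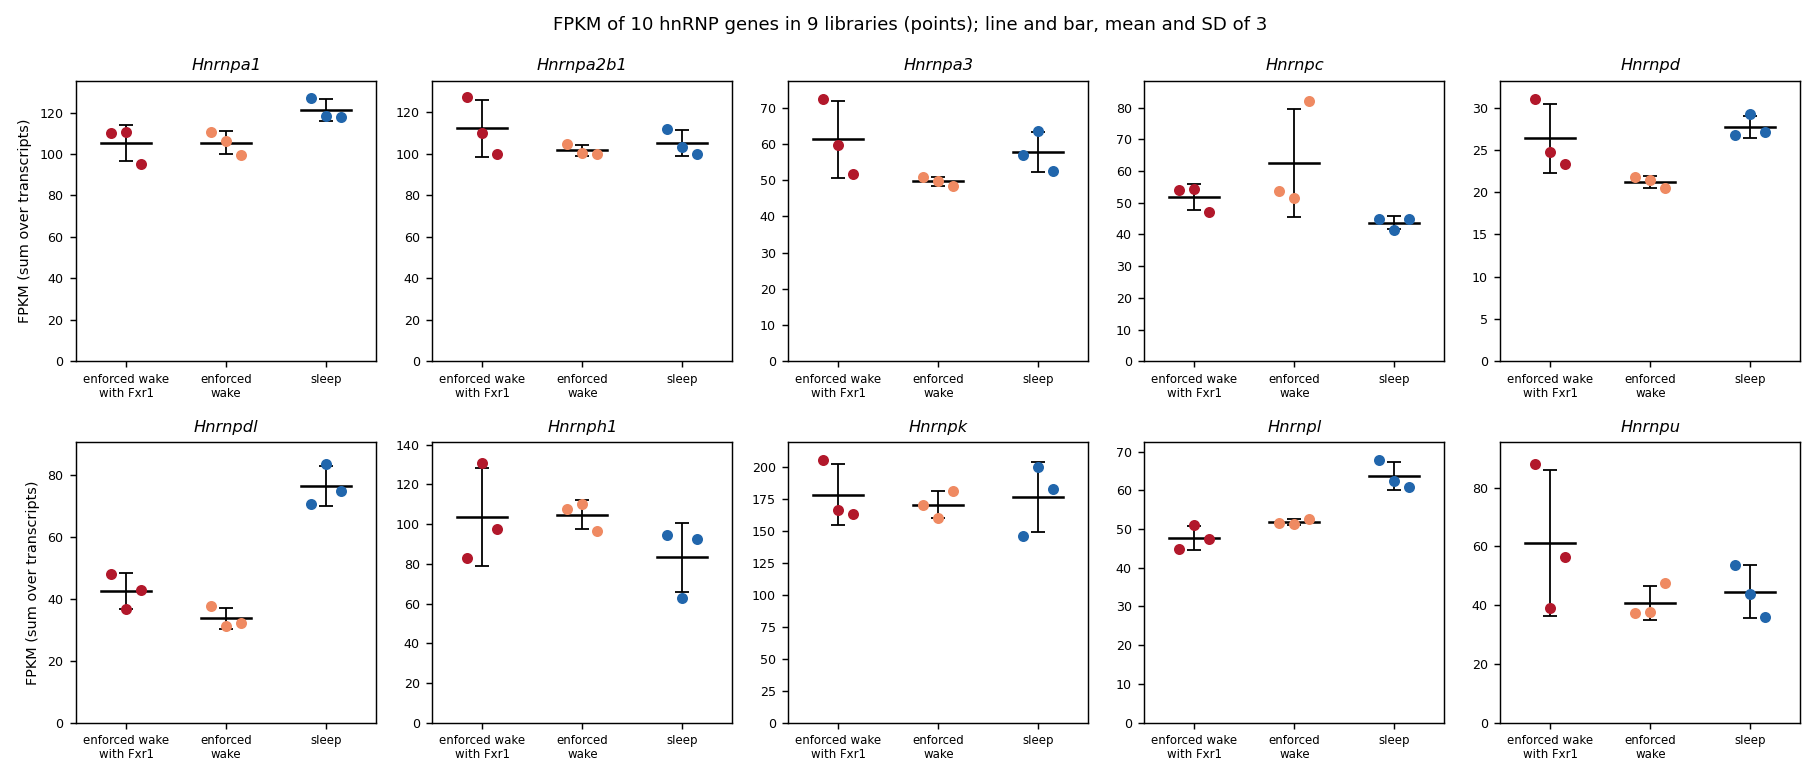
FPKM of each of the 10 hnRNP genes (y axis, linear, from 0) in the 3 libraries of each group, with the mean and SD of the group. The enforced wake points of Hnrnpdl, Hnrnpd and Hnrnpl lie below all of their sleep points, and single libraries stand apart for Hnrnpc (82.2 FPKM in an enforced wake library) and Hnrnpu (88.2 FPKM in a library of enforced wake with Fxr1).

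Enforced wake was set against sleep to ask how being awake changes the RNA on neuronal ribosomes. Of the 10 hnRNP genes 3 were lower in enforced wake, Hnrnpdl, Hnrnpd and Hnrnpl, and none was higher. Across all 14673 genes tested, 12.7% passed as lower and 28.3% passed in either direction, so 3 of 10 in all is close to the share over all genes. The median difference of the 10 was -0.16 on the log2(FPKM + 1) scale, beside 0.0043 over all genes. The groups did not overlap for 7 of the 10, beside 49.5% of all genes. With ribosome-bound RNA from a whole pull-down, fewer neurons with a message and less of it per neuron cannot be told apart. All 9 libraries are pull-downs, so a smaller part of the message on ribosomes cannot be told from these either.

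Hnrnpdl, a close relative of Hnrnpd that acts in splicing and binds AU-rich RNA, had the largest difference of the set. It had 37.5, 31.1 and 32.3 FPKM in enforced wake, against 70.6, 83.4 and 74.8 FPKM in sleep. The lowest sleep library was well above the highest enforced wake library. The difference was -1.16 (SE 0.09) on the log2(FPKM + 1) scale with a limma adjusted p of 0.00135. It passed under all 15 alternatives tried, with differences of -1.24 to -1.06.

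Hnrnpd had 21.8, 21.4 and 20.4 FPKM in enforced wake, against 26.8, 29.2 and 27.2 FPKM in sleep. The groups were apart by more than the spread within either of them. The difference was -0.37 (SE 0.06) with a limma adjusted p of 0.00852, and it too passed under all 15 alternatives. Hnrnpd and Hnrnpdl are neighbours on the minus strand of chromosome 5. Hnrnpd lies at chr5:99955935-99978938 and Hnrnpdl at chr5:100033577-100039664, and the 54.6 kb between them hold 1 annotated gene, 4930524J08Rik, with means of 0.182 FPKM in enforced wake with Fxr1, 0.0277 FPKM in enforced wake and 0.117 FPKM in sleep.

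Hnrnpl, which binds CA repeats and represses or enhances exons near them, had 51.4, 51.2 and 52.6 FPKM in enforced wake, against 67.8, 62.5 and 60.9 FPKM in sleep. The enforced wake libraries lay within a narrow band below all sleep libraries. The difference was -0.29 (SE 0.06) with a limma adjusted p of 0.0147. The call ended without library 2 of enforced wake (adjusted p = 0.0586). Hnrnpl has the highest GC content of the set, 54.2% in its longest transcript, and fold changes followed GC content here. Their median, enforced wake minus sleep, was -0.17 in the fifth of genes with the lowest GC content and 0.28 in the fifth with the highest. With that trend and the trend with length removed, the difference of Hnrnpl was -0.45, that of Hnrnpd was -0.25 and that of Hnrnpdl was -1.06, and all 3 passed.

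The other 7 genes did not pass. Hnrnpa1, a splicing repressor that shuttles between nucleus and cytoplasm, had 110, 106 and 99.5 FPKM in enforced wake and 127, 118 and 118 FPKM in sleep, with a difference of -0.20 (SE 0.06, limma adjusted p = 0.0529). It was past the threshold where genes below a mean of 2 FPKM were left out (adjusted p = 0.0477) and where libraries were scaled to their protein-coding total (adjusted p = 0.0450). Corrected for GC content and length, its difference was -0.036 (adjusted p = 0.694). Hnrnpa3, its relative in the A/B group, had 50.9, 49.7 and 48.5 FPKM in enforced wake and 56.9, 63.7 and 52.6 FPKM in sleep, with a difference of -0.21 (adjusted p = 0.0853). For both, every enforced wake library lay below every sleep library.

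Hnrnpc and Hnrnph1 lay the other way. Hnrnpc, which packages pre-messenger RNA and binds runs of U, had 53.8, 51.6 and 82.2 FPKM in enforced wake and 45.0, 41.5 and 44.8 FPKM in sleep. Library 3 of enforced wake stood far above the other two, and the difference of 0.47 (SE 0.17) did not pass (limma adjusted p = 0.0812). Hnrnph1, which binds runs of G, had 108, 110 and 96.7 FPKM in enforced wake and 94.3, 63.0 and 92.3 FPKM in sleep, with a difference of 0.35 (adjusted p = 0.136). Hnrnpa2b1, known for the carriage of messages into dendrites, Hnrnpk, and Hnrnpu, a nuclear scaffold protein, had overlapping groups and differences of -0.11 to -0.04.

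**Figure D2:**
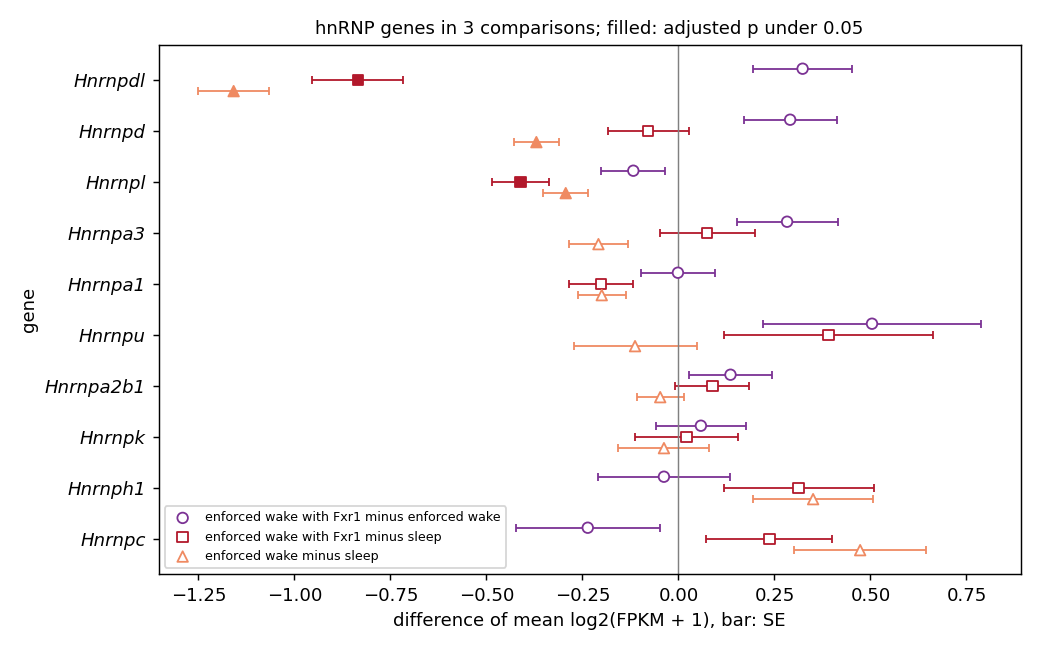
Differences of the mean log2(FPKM + 1) with their SE (x axis) for the 10 hnRNP genes in the 3 comparisons, filled where the limma adjusted p was under 0.05. The largest differences are those of Hnrnpdl, -1.16 for enforced wake minus sleep and -0.83 for enforced wake with Fxr1 minus sleep. No point of enforced wake with Fxr1 minus enforced wake is filled.

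Enforced wake with Fxr1 was set against enforced wake to ask what the added Fxr1 changes in mice kept awake. None of the 10 hnRNP genes passed by limma, while 0.412% of the 14563 genes tested did. At an unadjusted p under 0.05 were 2 of the 10, Hnrnpd and Hnrnpdl, and 38.3% of all genes. The median difference of the 10 was 0.10 on the log2(FPKM + 1) scale, beside -0.06 over all genes. The groups did not overlap for 3 of the 10, beside 52.5% of all genes. Of these, Hnrnpa3 and Hnrnpd lay above enforced wake and Hnrnpl lay below it. Hnrnpl differed by -0.12 (SE 0.08, limma adjusted p = 0.312) and Hnrnpc by -0.24 (SE 0.19, adjusted p = 0.364). Hnrnpa1 and Hnrnph1 differed by -0.0014 and -0.038.

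Hnrnpdl had 48.0, 36.6 and 42.8 FPKM in enforced wake with Fxr1 and 37.5, 31.1 and 32.3 FPKM in enforced wake. The difference was 0.32 (SE 0.13, limma adjusted p = 0.121), and 1 of the 3 libraries with Fxr1 lay within the range of enforced wake. Hnrnpd had 31.0, 24.7 and 23.4 FPKM in enforced wake with Fxr1 and 21.8, 21.4 and 20.4 FPKM in enforced wake, a difference of 0.29 (SE 0.12, adjusted p = 0.130). Hnrnpa3 had 72.5, 59.7 and 51.6 FPKM in enforced wake with Fxr1 and 50.9, 49.7 and 48.5 FPKM in enforced wake, a difference of 0.28 (SE 0.13, adjusted p = 0.158). For Hnrnpd and Hnrnpa3 all libraries with Fxr1 were above all without it, and library 1 was the highest.

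The median difference over genes was 0.29 in the fifth with the lowest GC content and -0.62 in the fifth with the highest. With the trend removed, Hnrnpdl, Hnrnpd and Hnrnpa3 differed by 0.25, 0.027 and -0.033. Hnrnpu had 88.2, 39.0 and 56.3 FPKM in enforced wake with Fxr1 and 37.3, 37.7 and 47.4 FPKM in enforced wake. Its difference of 0.50 (SE 0.28, limma adjusted p = 0.222) had the widest error of the set, and library 1 of enforced wake with Fxr1 was again the highest. Without that library none of the 10 passed either, while 3316 genes over the whole fit did, in place of 60.

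Against sleep, 2 hnRNP genes were lower in enforced wake with Fxr1, Hnrnpdl and Hnrnpl, and none was higher. Over the 14617 genes of that fit 7.79% passed in either direction and 4.58% passed as lower. This comparison shares its libraries with the other 2, so its values add to them no independent evidence. Hnrnpdl had 48.0, 36.6 and 42.8 FPKM in enforced wake with Fxr1, against 70.6, 83.4 and 74.8 FPKM in sleep, a difference of -0.83 (SE 0.12) with a limma adjusted p of 0.00737 that passed under all 19 alternatives. Hnrnpl had 44.8, 50.9 and 47.4 FPKM in enforced wake with Fxr1, against 67.8, 62.5 and 60.9 FPKM in sleep, a difference of -0.41 (SE 0.07, adjusted p = 0.0187). The Hnrnpl call ended without any single sleep library (adjusted p = 0.0559 to 0.0812), in a fit of only the 6 libraries (0.0898), and with the trend with GC content removed, where the difference was -0.18 (0.215). Hnrnpd differed by -0.079 (SE 0.11, adjusted p = 0.628), and by -0.22 (0.0258) with that trend removed. The difference between the effects of wake and of Fxr1 on a gene was not tested.

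The transcripts of each gene were followed one by one. Of the 99 transcripts 44 are annotated as protein-coding, 10 as targets of nonsense-mediated decay, in which messages with an early stop codon are destroyed, and 45 as non-coding, mostly with a retained intron or no reading frame. Estimates for single transcripts spread more than those for genes. The coefficient of variation (SD over mean) among the 3 libraries had a median over the 10 genes of 13.3% in enforced wake with Fxr1, 5.71% in enforced wake and 7.27% in sleep. Over the 51 transcripts with a mean of at least 1 FPKM it was 35.9% in enforced wake with Fxr1, 24.5% in enforced wake and 24.2% in sleep. The part that the division of reads between transcripts with shared exons has in these values was not tested.

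For Hnrnpdl, the split between transcripts differed among libraries of 1 group. Its main coding transcript, Hnrnpdl-202, had 13.01, 28.3 and 14.3 FPKM in enforced wake with Fxr1, 13.7, 24.5 and 13.6 FPKM in enforced wake, and 61.9, 35.3 and 33.7 FPKM in sleep. The non-coding Hnrnpdl-203, made of 2 exons, had 16.3, 0.865 and 13.2 FPKM in enforced wake with Fxr1, 10.9, 0.286 and 10.4 FPKM in enforced wake, and 0.470, 27.1 and 22.6 FPKM in sleep. In 1 library of each group, library 2 of both wake groups and library 1 of sleep, Hnrnpdl-203 was near 0 and Hnrnpdl-202 was highest. The same libraries had the lowest sum over the gene in their group, 36.6 FPKM in enforced wake with Fxr1, 31.1 FPKM in enforced wake and 70.6 FPKM in sleep. Hnrnpdl-202 as a share of both was 44.4%, 97.0% and 51.9% in enforced wake with Fxr1, 55.8%, 98.8% and 56.7% in enforced wake, and 99.2%, 56.6% and 59.9% in sleep.

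All 3 enforced wake values of Hnrnpdl-202 lay below all 3 sleep values, yet its difference of -1.29 did not pass (limma adjusted p = 0.104). The coding Hnrnpdl-207 had 13.5, 5.56 and 9.71 FPKM in enforced wake with Fxr1, 8.46, 4.45 and 6.39 FPKM in enforced wake, and 6.18, 10.8 and 11.1 FPKM in sleep. Hnrnpdl-201, annotated as a target of nonsense-mediated decay, had 4.35, 0.675 and 3.97 FPKM in enforced wake with Fxr1, 2.99, 1.03 and 0.974 FPKM in enforced wake, and 0.866, 9.47 and 6.17 FPKM in sleep. Groups of both overlapped between enforced wake and sleep.

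**Figure D3:**
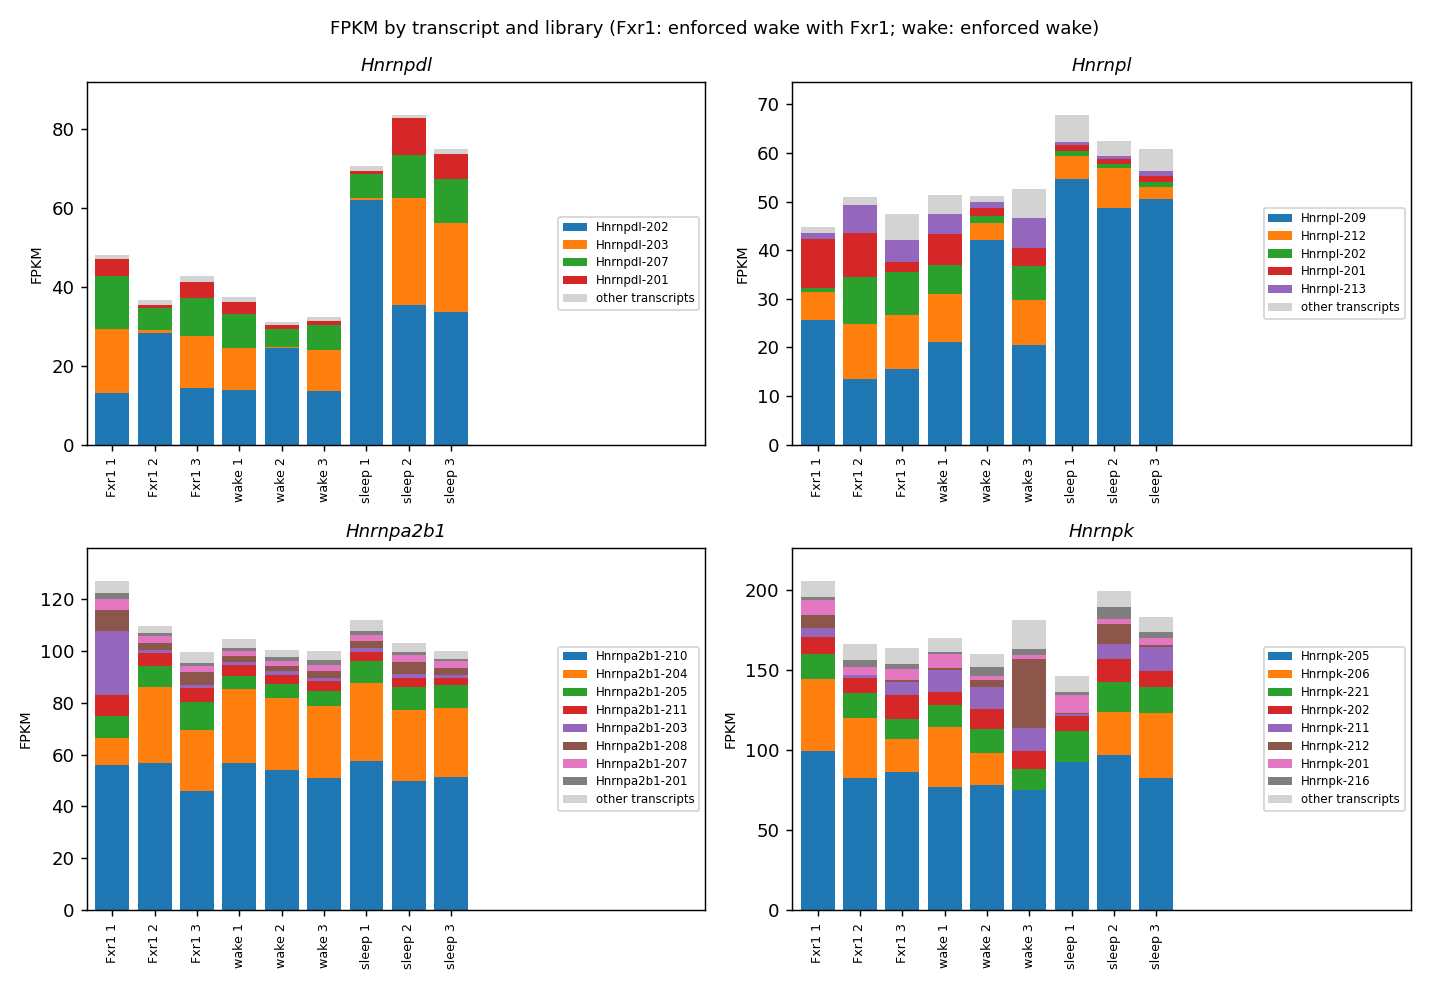
FPKM of single transcripts (coloured) stacked to the gene's total (bar height) in each of the 9 libraries, for Hnrnpdl, Hnrnpl, Hnrnpa2b1 and Hnrnpk. Hnrnpdl-203 is near 0 in 1 library of each group, Hnrnpl-209 is lower in both wake groups than in sleep, Hnrnpa2b1-203 is high in 1 library, and Hnrnpk-206 is listed at 0 in 2 libraries.

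The make-up of Hnrnpl also differed between its libraries, going by these estimates. The coding Hnrnpl-209 had 25.6, 13.4 and 15.5 FPKM in enforced wake with Fxr1, 21.04, 42.0 and 20.6 FPKM in enforced wake, and 54.6, 48.7 and 50.4 FPKM in sleep. Hnrnpl-213, the form annotated as a target of nonsense-mediated decay, had 1.17, 5.78 and 4.66 FPKM in enforced wake with Fxr1, 4.21, 1.13 and 6.17 FPKM in enforced wake, and 0.581, 0.583 and 0.923 FPKM in sleep. In human cells the hnRNP L protein is known to lower its own message by splicing it into a decay form. Whether Hnrnpl-213 is that form, and whether such control took place here, was not tested. Hnrnpl-213 was above every sleep library in all 6 libraries of wake, and Hnrnpl-209 was below every sleep library in all 6.

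Neither transcript passed in enforced wake against sleep, with a difference of -0.93 (limma adjusted p = 0.143) for Hnrnpl-209 and 1.35 (adjusted p = 0.177) for Hnrnpl-213. Hnrnpl-213 made up 2.61%, 11.4% and 9.85% of the gene's FPKM in enforced wake with Fxr1, 8.19%, 2.21% and 11.7% in enforced wake, and 0.857%, 0.933% and 1.52% in sleep. The library of each wake group with the least Hnrnpl-213 was also the one with the most Hnrnpl-209. The coding Hnrnpl-201 had 9.96, 9.14 and 2.07 FPKM in enforced wake with Fxr1, 6.18, 1.69 and 3.64 FPKM in enforced wake, and 1.28, 1.08 and 1.37 FPKM in sleep. The coding Hnrnpl-202 had 0.932, 9.68 and 8.77 FPKM in enforced wake with Fxr1, 6.09, 1.34 and 7.10 FPKM in enforced wake, and 0.928, 0.803 and 0.976 FPKM in sleep. Both had all 3 enforced wake libraries above all 3 sleep libraries, and neither difference passed (limma adjusted p = 0.197 and 0.179).

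In enforced wake against sleep 5 of the 65 hnRNP transcripts tested were lower and none was higher, while 1.58% of the 29116 transcripts tested passed as lower and 3.62% passed in either direction. They were Hnrnpa1-202, Hnrnpa3-203, Hnrnpd-211, Hnrnpa2b1-205 and Hnrnpl-203. Hnrnpa1-202, the main form of its gene, had 78.6, 78.0 and 69.3 FPKM in enforced wake and 97.8, 95.02 and 96.3 FPKM in sleep, a difference of -0.35 (SE 0.06, limma adjusted p = 0.0479). Hnrnpa3-203, which carries most of the Hnrnpa3 signal, had 41.0, 39.0 and 36.3 FPKM in enforced wake and 51.8, 52.3 and 49.3 FPKM in sleep, a difference of -0.39 (SE 0.06, adjusted p = 0.0407). Hnrnpd-211 had 17.8, 18.8 and 18.1 FPKM in enforced wake and 24.3, 25.8 and 23.2 FPKM in sleep, a difference of -0.40 (SE 0.06, adjusted p = 0.0389). In each of these 3 transcripts every enforced wake library lay below every sleep library.

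Hnrnpa2b1-205 is a short coding fragment of 466 bases in 5 exons. It had 5.13, 5.13 and 5.77 FPKM in enforced wake and 8.35, 8.99 and 8.73 FPKM in sleep, a difference of -0.61 (SE 0.08, limma adjusted p = 0.0276). Enforced wake with Fxr1 had 8.51, 7.82 and 10.5 FPKM, above every enforced wake library, but that difference of 0.64 did not pass (adjusted p = 0.171). Hnrnpl-203, a form with a retained intron, lay under the mean of 1 FPKM and was named after its values were seen. It had 0.0943, 0.0691 and 0.158 FPKM in enforced wake and 1.899, 1.06 and 1.83 FPKM in sleep, a difference of -1.21 (SE 0.17, adjusted p = 0.0306). None of the hnRNP transcripts passed without library 1 or 3 of enforced wake, or without library 1 or 3 of sleep.

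No hnRNP transcript passed in enforced wake with Fxr1 against enforced wake, of 66 tested, beside 0.895% of all 28837 transcripts, and 9 of the 66 had an unadjusted limma p under 0.05, beside 19.7% of all transcripts. Against sleep, none of 64 passed, beside 0.818% of 28989, and 11 of the 64 had an unadjusted p under 0.05, beside 15.2% of all. In the authors' deposited table for enforced wake and sleep, none of the 99 transcripts had a q-value under 0.05, and the smallest, 0.415, was that of Hnrnpa2b1-205. In the authors' deposited table for enforced wake with and without Fxr1, none of 98 transcripts did, and the smallest q-value, 0.302, was again that of Hnrnpa2b1-205. Over all transcripts with a q-value, 14 of 79923 and 24 of 79087 were under 0.05 in these deposited tables.

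Transcripts were also summed by annotated class within each gene. In enforced wake against sleep 3 of 21 hnRNP classes were lower and none was higher, beside 6.36% of all 19320 classes that passed as lower. The coding class of Hnrnpdl had 22.2, 28.9 and 19.9 FPKM in enforced wake and 68.0, 46.1 and 44.8 FPKM in sleep (difference -1.12, SE 0.21, limma adjusted p = 0.0272). That of Hnrnpd had 20.6, 20.2 and 19.1 FPKM in enforced wake and 25.7, 28.1 and 25.5 FPKM in sleep (-0.39, SE 0.06, adjusted p = 0.0188). That of Hnrnpl had 35.6, 45.1 and 34.1 FPKM in enforced wake and 58.2, 51.3 and 53.6 FPKM in sleep (-0.50, SE 0.12, adjusted p = 0.0440). Each of these groups lay below its sleep libraries throughout.

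Against enforced wake none of 22 hnRNP classes passed in enforced wake with Fxr1, beside 0.442% of all classes, and 3 had an unadjusted limma p under 0.05, beside 28.4% of all. Against sleep 1 of 21 was lower in enforced wake with Fxr1, the coding class of Hnrnpl, beside 2.93% of all classes. It had 36.6, 32.5 and 27.4 FPKM in enforced wake with Fxr1 and 58.2, 51.3 and 53.6 FPKM in sleep (-0.75, SE 0.14, limma adjusted p = 0.0360).

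Hnrnpa1 has 2 forms. Hnrnpa1-201, the less abundant form, had 21.9, 27.2 and 22.7 FPKM in enforced wake with Fxr1, 31.8, 28.2 and 30.2 FPKM in enforced wake, and 29.4, 23.3 and 21.6 FPKM in sleep. It made up 19.9%, 24.5% and 23.9% of the gene in enforced wake with Fxr1, 28.8%, 26.6% and 30.4% in enforced wake, and 23.1%, 19.7% and 18.4% in sleep. All enforced wake libraries were above all libraries of both other groups. The mean share of enforced wake was 8.19 percentage points above that of sleep, and that of enforced wake with Fxr1 minus that of enforced wake was -5.83 percentage points. The exact permutation test, 2-sided, gave p = 0.10 for enforced wake against sleep and for enforced wake with Fxr1 against enforced wake, the smallest it can give with 3 against 3. It was computed for 3 shares in 3 comparisons, and no p can pass after adjustment at this size.

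In Hnrnpa2b1 the coding transcripts Hnrnpa2b1-203 and Hnrnpa2b1-204 have the exon of 120 bases. They made up 38.6%, 35.4% and 35.3% of the FPKM of Hnrnpa2b1-203, Hnrnpa2b1-204 and Hnrnpa2b1-210 in enforced wake with Fxr1. Left out of the share were Hnrnpa2b1-202 and Hnrnpa2b1-207, which also have the exon, at means of 0.940 and 2.55 FPKM over all libraries. The share was 34.5%, 35.1% and 36.5% in enforced wake and 35.6%, 36.7% and 35.4% in sleep, and the groups overlapped. Within it, library 1 of enforced wake with Fxr1 stood out. There Hnrnpa2b1-203, a form with the exon of 36 bases, had 24.6 FPKM and Hnrnpa2b1-204 had 10.6 FPKM. In the other 8 libraries Hnrnpa2b1-203 had 1.27 to 1.62 FPKM and Hnrnpa2b1-204 had 23.8 to 30.2 FPKM. The exon of 36 bases is also in Hnrnpa2b1-207, annotated as a target of nonsense-mediated decay. Hnrnpa2b1-207 had 4.56 FPKM in that library and 1.92 to 2.76 FPKM in the other 8.

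**Figure D4:**
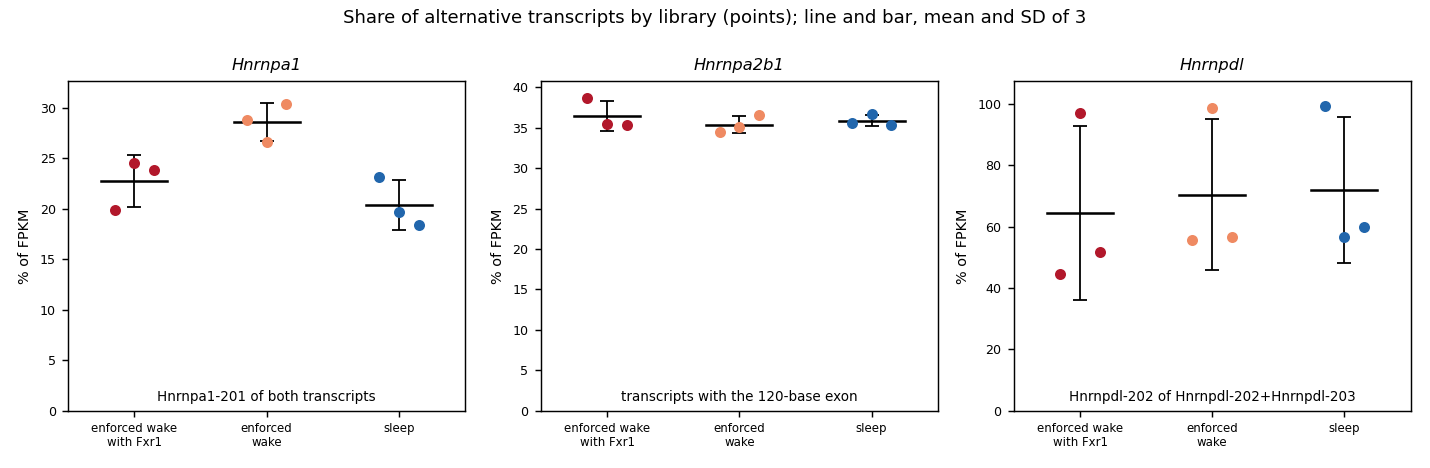
Share of FPKM (y axis, percent, from 0) of Hnrnpa1-201 in both Hnrnpa1 transcripts, of Hnrnpa2b1-203 and Hnrnpa2b1-204 in these and Hnrnpa2b1-210, and of Hnrnpdl-202 in Hnrnpdl-202 and Hnrnpdl-203, by library with the mean and SD of the group. Hnrnpa1 is at 26.6% to 30.4% in enforced wake, above all other libraries, Hnrnpa2b1 stays at 34.5% to 38.6%, and Hnrnpdl has 1 library near 100% in each group.

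The main form of Hnrnpa2b1, Hnrnpa2b1-210, had 55.8, 56.6 and 45.8 FPKM in enforced wake with Fxr1, 56.6, 54.1 and 51.0 FPKM in enforced wake, and 57.5, 49.9 and 51.4 FPKM in sleep, with no separation of groups. Hnrnpa2b1-211, with a retained intron, had 8.20, 5.04 and 5.54 FPKM in enforced wake with Fxr1, 4.18, 3.81 and 3.64 FPKM in enforced wake, and 3.43, 3.52 and 2.69 FPKM in sleep. Each group lay above the one after it without overlap, but neither step passed, with a difference of 0.55 for enforced wake with Fxr1 minus enforced wake (limma adjusted p = 0.230) and 0.21 for enforced wake minus sleep (adjusted p = 0.355). The remaining forms above 1 FPKM, Hnrnpa2b1-201, Hnrnpa2b1-207 and Hnrnpa2b1-208, overlapped between enforced wake and sleep.

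Hnrnph1 was measured mostly through forms without a reading frame. Its 15 non-coding transcripts made up 94.0% to 96.8% of its FPKM in enforced wake with Fxr1, 88.5% to 93.3% in enforced wake and 92.0% to 96.5% in sleep. The largest, Hnrnph1-217 of 677 bases, had 1.72, 60.8 and 28.9 FPKM in enforced wake with Fxr1, 41.2, 42.7 and 33.7 FPKM in enforced wake, and 43.3, 12.7 and 40.0 FPKM in sleep. The spread within groups was as wide as that between them. Hnrnph1-211 of 1724 bases had 45.6, 36.7 and 30.7 FPKM in enforced wake with Fxr1, 24.97, 26.6 and 27.3 FPKM in enforced wake, and 19.8, 18.9 and 26.4 FPKM in sleep. All libraries with Fxr1 were above all others, with a difference from enforced wake of 0.49 that did not pass (limma adjusted p = 0.223). When genes were summed as fragments, which gives short transcripts less weight, Hnrnph1 was higher in enforced wake than in sleep (0.38, adjusted p = 0.0382) and Hnrnpa3 was lower (-0.35, adjusted p = 0.00736). Corrected for GC content and length, the difference of Hnrnpa3 was -0.040 (adjusted p = 0.613) and that of Hnrnph1 was 0.55 (adjusted p = 0.0804).

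Hnrnpk was led by the coding Hnrnpk-205, at 99.5, 82.6 and 86.3 FPKM in enforced wake with Fxr1, 76.8, 78.4 and 74.8 FPKM in enforced wake, and 92.4, 97.2 and 82.5 FPKM in sleep. Enforced wake lay below both other groups in every library, with differences that did not pass (-0.24 for enforced wake minus sleep, limma adjusted p = 0.130). Hnrnpk-206, with retained introns, had 45.1, 37.6 and 20.8 FPKM in enforced wake with Fxr1, 37.9, 19.7 and 0 FPKM in enforced wake, and 0, 26.5 and 40.6 FPKM in sleep. It was listed at 0 in 1 library of enforced wake and 1 of sleep. Hnrnpk-212, another retained-intron form, had 43.1 FPKM in library 3 of enforced wake and less than that in the other 8, from 0.307 FPKM in library 2 of enforced wake with Fxr1 up to 11.996 FPKM in library 2 of sleep. The 9 non-coding Hnrnpk transcripts together made up 3.98% to 39.8% of the gene over the 9 libraries. The gene Rmi1 overlaps Hnrnpk on the other strand, and so do Cox20 with Hnrnpu and antisense genes with Hnrnpd and Hnrnpl. The labels do not say whether the counting used strand.

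Hnrnpc consists of 2 coding transcripts of nearly equal length. Hnrnpc-201 had 43.3, 47.7 and 37.5 FPKM in enforced wake with Fxr1, 40.4, 39.7 and 63.7 FPKM in enforced wake, and 33.5, 34.9 and 34.4 FPKM in sleep. Hnrnpc-202 had 10.8, 6.70 and 9.48 FPKM in enforced wake with Fxr1, 13.4, 11.9 and 18.5 FPKM in enforced wake, and 11.6, 6.55 and 10.4 FPKM in sleep. Library 3 of enforced wake was the highest in both. Hnrnpu was carried by 1 coding transcript, Hnrnpu-201, at 84.4, 34.8 and 50.9 FPKM in enforced wake with Fxr1, 32.6, 28.1 and 44.8 FPKM in enforced wake, and 47.7, 40.0 and 32.7 FPKM in sleep, with overlap throughout. The A1, A3 and C genes are known for processed copies elsewhere in the genome, and the labels do not say how reads shared with such copies were assigned.

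The other hnRNPs and the proteins that work with them were counted in the same fits. In enforced wake against sleep 15.7% of all genes passed as higher and 12.7% as lower, and the counts of each list stand beside these shares. Of 22 other hnRNP genes 2 were higher and 7 were lower in enforced wake than in sleep, with a median difference of -0.073, beside 0.0043 over all genes. Hnrnpr, which acts in axonal messages, had 33.2 ± 3.48 FPKM in enforced wake and 54.5 ± 4.17 FPKM in sleep, a difference of -0.70 (SE 0.09, limma adjusted p = 0.00541). Rbmx, also known as hnRNP G, had 13.7 ± 0.668 FPKM in enforced wake and 23.1 ± 3.06 FPKM in sleep (-0.71, adjusted p = 0.00595). Hnrnpf, a relative of Hnrnph1 that also binds runs of G, was higher, at 36.5 ± 1.43 FPKM in enforced wake and 21.9 ± 3.69 FPKM in sleep (0.72, adjusted p = 0.00792). Values are means ± SD with n = 3 each. With Fxr1 1 of the 22 passed against enforced wake, beside 0.412% of all genes: Pcbp4, which binds runs of C, had 5.06 ± 1.45 FPKM in enforced wake with Fxr1 and 16.8 ± 1.73 FPKM in enforced wake (-1.58, adjusted p = 0.0413). Over all genes 60 passed in that comparison, and 2 to 4 with any 1 enforced wake library left out. Whether Pcbp4 was among the genes that still passed was not followed.

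Of 10 factors of nonsense-mediated decay 4 were higher in enforced wake than in sleep, beside 15.7% of all genes, and none was lower. Upf1, the helicase of that pathway, had 14.1 ± 0.306 FPKM in enforced wake and 8.11 ± 1.26 FPKM in sleep (0.74, SE 0.11, limma adjusted p = 0.00642). Smg5, which binds phosphorylated Upf1, had 20.1 ± 1.63 FPKM in enforced wake and 14.2 ± 1.22 FPKM in sleep, a difference of 0.48 (adjusted p = 0.0120). Upf1 had 7.16 ± 2.47 FPKM in enforced wake with Fxr1, and no factor of the list passed against enforced wake. The median difference of the 10 factors there was -0.037, beside -0.057 over all genes.

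Of 28 core genes of the spliceosome 5 were higher and 1 was lower in enforced wake than in sleep, in all a smaller share than the 28.3% of all genes that passed. Snrnp70, of the particle that reads the start of introns, had 22.1 ± 0.751 FPKM in enforced wake and 12.6 ± 0.653 FPKM in sleep (0.76, SE 0.06, limma adjusted p = 0.00135). Of 17 neuronal splicing regulators 3 were higher and 5 were lower. Celf4 had 94.95 ± 3.17 FPKM in enforced wake and 53.9 ± 1.11 FPKM in sleep (0.81, adjusted p = 0.00101), and Nova1 had 7.35 ± 0.0393 FPKM in enforced wake and 11.9 ± 0.728 FPKM in sleep (-0.63, adjusted p = 0.00262). Of 16 nuclear RNA-binding partners 3 were higher and 4 were lower, among them the helicase Ddx17, at 62.2 ± 2.99 FPKM in enforced wake and 40.9 ± 3.17 FPKM in sleep. Of 6 genes for the import and arginine methylation of hnRNPs 1 was higher, the importin Tnpo1, at 8.76 ± 0.240 FPKM in enforced wake and 7.43 ± 0.296 FPKM in sleep (0.21, adjusted p = 0.0436). None of these 4 lists had a gene that passed in enforced wake with Fxr1 against enforced wake. Against sleep 3.2% of all genes passed as higher and 4.58% as lower in enforced wake with Fxr1. There 3 of the 22 other hnRNP genes were lower, and 2 of the 10 decay factors were higher and 1 was lower. Of the 16 nuclear partners 2 were higher and 2 were lower there, 1 core spliceosome gene and 1 gene of import and methylation were higher, and none of the 17 splicing regulators passed.

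Markers of other cells and of neurons were counted in the same fits, first in enforced wake against sleep. Higher were 1 of 6 astrocyte, 1 of 6 oligodendrocyte and 1 of 6 microglia genes, beside 15.7% of all genes. Lower were 1 of 5 endothelial genes tested and 2 of 8 neuronal genes, beside 12.7% of all genes. Median differences were 0.18 for astrocyte, 0.21 for oligodendrocyte, 0.31 for microglia, -0.051 for endothelial and -0.00064 for neuronal genes, beside 0.0043 over all genes. Mbp, the myelin basic protein of oligodendrocytes, had 47.6 ± 4.32 FPKM in enforced wake and 24.6 ± 2.17 FPKM in sleep, and Snap25 had 2288 ± 82.6 FPKM in enforced wake and 2657 ± 89.6 FPKM in sleep. In enforced wake with Fxr1 the astrocyte gene Gfap was lower, at 11.4 ± 1.96 FPKM, against 36.9 ± 3.76 FPKM in enforced wake. It was the 1 gene of 6 in its list that passed there, beside 0.412% of all genes. Median differences there were -0.32 for astrocyte, -0.17 for oligodendrocyte and -0.47 for microglia genes. They were -0.047 for endothelial and -0.025 for neuronal genes, beside -0.057 over all genes. Against sleep, 1 of the 6 astrocyte genes was higher in enforced wake with Fxr1 and 1 was lower, beside 3.2% and 4.58% of all genes. The part of such cells in the hnRNP values was not tested.

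The genes whose levels over the 9 libraries were most like those of Hnrnpdl and Hnrnpd, the members with the smallest p, were looked up among 8736 genes with a mean of at least 5 FPKM. For Hnrnpdl they were Fam204a, Zkscan16, Exoc2, Haus1 and Epm2a, with Pearson r of 0.982 to 0.991 of log2(FPKM + 1). Fam204a had means of 6.15 FPKM in enforced wake with Fxr1, 4.93 FPKM in enforced wake and 9.86 FPKM in sleep. For Hnrnpd they were Hdgfrp3, Gnai1, Acot9, Bnip3 and Nucks1, with r of 0.992 to 0.998. Gnai1, a G protein subunit, had means of 121 FPKM in enforced wake with Fxr1, 95.5 FPKM in enforced wake and 127 FPKM in sleep. These are descriptions over 9 points that share the 3 groups. Among the members themselves r over the 9 libraries was highest for Hnrnpa3 and Hnrnpd, at 0.880, and lowest for Hnrnpc and Hnrnpdl, at -0.719.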

How the data were processed

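RNA on ribosomes of mPFC neurons was sequenced in 9 libraries, 3 per group, from stranded total RNA kits, per the labels. The authors deposited 2 tables of FPKM per transcript and library, with their fold ratio, p-value and q-value per transcript, per the file headers. The authors' fold, checked against the FPKM columns, has sleep on top in the table of sleep and enforced wake, and Fxr1 on top in the other. The labels do not name the tool behind it. The submitters' processing notes list StringTie 1.3.4d, HISAT2 2.1.0 and SAMtools 1.9, and GRCm38 as the build. Enforced wake values were identical in both tables. FPKM are scaled within each library, so a rise of abundant RNAs lowers the rest, and read counts are not given, so depth is an estimate from the steps between low FPKM values.

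Transcripts were summed by gene symbol and by class within a gene (GENCODE M21, 99.1% of transcripts matched). Values with a mean of at least 0.5 FPKM went, as log2(FPKM + 1), into limma 3.58.1 (R 4.3.3, eBayes with intensity trend, 2-sided, Benjamini-Hochberg over all features, threshold 0.05), on the 6 libraries compared, or on all 9 for Fxr1 against sleep. The log2 scale with a pseudocount of 1 understates changes of low values. With 3 against 3 an exact permutation test cannot go below 0.10, so calls rest on limma's model. Alternatives were a pseudocount of 0.1, no filter, a mean of at least 2 FPKM, 2 scalings, removal of the trend with GC content and length (splines with 5 degrees of freedom each, over protein-coding features with a mean of at least 1 FPKM), no intensity trend, a replicate block and leaving out each library. Fragments per gene, and a fit of only the 6 libraries for Fxr1 against sleep, were added after seeing the data.

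The members and lists were chosen with earlier results of these data known. Transcripts with a mean of at least 1 FPKM could be named, and from each list the 3 genes with the smallest p among those that passed with no overlap between groups. Likeness was searched among genes with a mean of at least 5 FPKM, taking 5 per member. Sequences were read from GENCODE M21 transcripts and RefSeq promoters. No protein sequences were used here, and 1 gene of the lists and 1 exon sequence are not reported here.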

Additional observations from a re-analysis of the deposited data

How the results depend on the processing

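Among the genes, Hnrnpdl and Hnrnpd in enforced wake against sleep, and Hnrnpdl in enforced wake with Fxr1 against sleep, passed under every alternative tried, and Hnrnpl in enforced wake against sleep under 14 of 15. The count of hnRNP genes in enforced wake against sleep was 5 (1 higher, 4 lower) with fragments per gene and 2 to 3 without each library in turn. In enforced wake with Fxr1 against enforced wake it was 0 under every alternative, while the count over all genes was 29 with a pseudocount of 0.1, 4 with no filter, 34 with a mean of at least 2 FPKM, 36 with protein-coding scaling, 1 with the replicate block, and 2 to 3316 without each library. In enforced wake with Fxr1 against sleep the hnRNP count was 1 with the replicate block, where Hnrnpl no longer passed (adjusted p = 0.0589), 1 with only the 6 libraries, and 1 to 2 without each library. The count over all genes there was 1868 with the trend with GC content removed, 372 with the replicate block, 183 with only the 6 libraries and 248 to 1440 without each library. In enforced wake against sleep it was 1822 to 3631 without each library.

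Calls of single transcripts and classes held less well. In enforced wake against sleep, where 5 transcripts were lower, the count was 0 with no filter, 2 with the GC trend removed (1 higher, 1 lower), 2 without the intensity trend (both lower), 0 with the replicate block and 0 to 2 without each library. The 2 without library 2 of enforced wake, and the 2 without library 2 of sleep, were again 1 higher and 1 lower. The count of transcripts in enforced wake with Fxr1 against sleep was 1 with the GC trend removed (higher) and 0 to 1 without each library. In enforced wake against sleep, where 3 classes were lower, the count was 1 with no filter (lower), 0 with the replicate block and 0 to 2 without each library, and the 2 without library 2 of enforced wake were 1 higher and 1 lower. Where 1 class was lower, in enforced wake with Fxr1 against sleep, the count was 0 with no filter, with median ratio scaling and with the replicate block, and 0 to 1 without each library. The cause was not tested.

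Directions that turned were those of differences that had not passed, and none passed in the other direction. With the GC trend removed these were, for enforced wake minus sleep, Hnrnpa2b1 at 0.10, Hnrnpk at 0.13 and Hnrnpu at 0.0089. For enforced wake with Fxr1 minus enforced wake they were Hnrnpa2b1 at -0.061, Hnrnpa3 at -0.033, Hnrnpk at -0.16 and Hnrnpl at 0.27. For enforced wake with Fxr1 minus sleep they were Hnrnpa3 at -0.073 and Hnrnpk at -0.028. Under median ratio scaling Hnrnpa1 was at 0.083 and Hnrnph1 at 0.046 for enforced wake with Fxr1 minus enforced wake, and Hnrnpd at 0.0058 for enforced wake with Fxr1 minus sleep. Under protein-coding scaling Hnrnpa1 was at 0.058 and Hnrnph1 at 0.022 for enforced wake with Fxr1 minus enforced wake. With fragments per gene Hnrnph1 was at 0.027 in that comparison, and Hnrnpa3 at -0.025 for enforced wake with Fxr1 minus sleep. Leaving out each library in turn, differences ranged from -0.17 to 0.057 for Hnrnpk and -0.26 to 0.030 for Hnrnpu in enforced wake minus sleep. In enforced wake with Fxr1 minus enforced wake they ranged from -0.042 to 0.069 for Hnrnpa1, -0.22 to 0.11 for Hnrnph1 and -0.048 to 0.12 for Hnrnpk. In enforced wake with Fxr1 minus sleep they ranged from -0.0049 to 0.17 for Hnrnpa2b1, -0.052 to 0.19 for Hnrnpa3 and -0.11 to 0.12 for Hnrnpk.

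Whether replicate numbers pair the libraries cannot be told from deviations around means of 3 libraries. Over 13018 genes the deviations of same-numbered libraries correlated at -0.072, -0.018 and 0.064 between enforced wake and sleep, at 0.079, -0.075 and 0.18 between enforced wake with Fxr1 and enforced wake, and at -0.26, -0.26 and 0.093 between enforced wake with Fxr1 and sleep. With the block Hnrnpdl, Hnrnpd and Hnrnpl still passed in enforced wake against sleep. At an estimated 2.99e+07 to 3.74e+07 fragments depth limits the forms under 1 FPKM, and 3 libraries per group limit the precision of every comparison.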
